A study of Mus musculus with 15 samples.

Results

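The p53 response genes are a list of 35 genes named one by one: p53 itself (Trp53), its regulators, and genes that p53 is known to switch on. They were found by name in the table of counts, where 35 of 35 had a value in each library, among 23393 named genes. Of the 13982 genes that passed the filter on low counts (at least 1 CPM, a count scaled to the library's size, in 2 or more libraries), 35 were on the list, so no member was lost. The question was whether the list sat higher in cells that make Cre recombinase than in cells that make a neural factor, and whether single libraries differed.

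The libraries came from mouse neural progenitors made from 129/Ola embryonic stem cells. All cells spent 2 days in suspension, then received 500 nM retinoic acid and 1 ug/ml doxycycline for 12 hours, which switched on the transgene. The control line, mA2.lox.Cre, made Cre under the doxycycline-driven promoter and gave 5 libraries. Each of 5 factor lines gave 2 libraries: 3 lines made a single factor, Olig2, Nkx6.1 or Nkx2.2, and 2 lines made a pair, Nkx6.1-P2A-Olig2 or Nkx6.1-P2A-Nkx2.2, where the P2A peptide lets 1 transcript give both proteins. Doxycycline and retinoic acid were thus shared by all groups, and no library lacked a transgene. Nothing in the labels ties replicates to separate cultures, or a line to 1 clone. A p-value here therefore weighs a difference between groups only against the spread of libraries within groups, and the libraries may be technical repeats.

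The protein p53 is a transcription factor that is kept low by Mdm2, a ubiquitin ligase, and by its relative Mdm4. When DNA is damaged or growth signals are abnormal, p53 escapes this control, binds paired copies of a short motif and raises genes that stop the cell cycle, repair DNA or start cell death; Mdm2 is itself one of its targets, which closes a negative loop. Embryonic stem cells are known for high p53 RNA and protein, and Cre is a recombinase that cuts DNA at its target sites.

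Library totals ran from 12282038 to 19426544 counts. Each factor was high where its transgene was present: Nkx2-2 was at 358 to 505 CPM in its own lines and at no more than 1.39 CPM elsewhere, Nkx6-1 at 616 to 681 against no more than 65.1 CPM, and Olig2 at 422 to 637 against no more than 45.1 CPM. The label numbers of the libraries start with 21 or 23; all 3 single-factor lines have 21, both 2-factor lines have 23, and the controls have 3 libraries of 21 (replicates 1 to 3) and 2 of 23 (replicates 4 and 5). Markers of neural progenitors in controls (CPM, SD, n = 5) were Sox2 at 174 ± 15.6, Pax6 at 99.8 ± 18.2 and Sox1 at 53.3 ± 13.5. Fabp7 of the same list was at 1.97 ± 0.651. Markers of pluripotent cells (Pou5f1, 54.8 ± 16.5 CPM) and of endoderm (from Afp, 28.2 ± 39.5, to Gata4, 129 ± 56.2 CPM) were present as well. The summed level of 8 pluripotency markers ranged from 227 to 435 CPM in controls and from 137 to 365 CPM in factor libraries. In bulk RNA, fewer cells of a type and less RNA per cell cannot be told apart.

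The promoters of some of the members discussed below are shown because p53 acts through a short sequence. RefSeq (build GRCm38.p6) gave promoter windows, from 250 bases before to 50 bases after a transcription start, for 27 of the 35 members. Capitals mark matches to the p53 half-site consensus decamer, which reads the same on both strands, so that 1 search covers both; positions are counted from the start site. Cdkn1a is shown at chr17:29090729-29091028 (plus strand), with half-sites at -73 and -51. Gadd45a is at chr6:67037358-67037657 (minus strand), with 1 at -40. Aen is at chr7:78895808-78896107 (plus strand), with 1 at -121. Ccng1 is at chr11:40755237-40755536 (minus strand), with 1 at -185. Mdm2 is at chr10:117710709-117711008 (minus strand), with 1 at -186, and Plk2 at chr13:110394794-110395093 (plus strand), with none. Plk3 and Ccng2, which also passed in a test, had windows with no match and are not shown.
Cdkn1a: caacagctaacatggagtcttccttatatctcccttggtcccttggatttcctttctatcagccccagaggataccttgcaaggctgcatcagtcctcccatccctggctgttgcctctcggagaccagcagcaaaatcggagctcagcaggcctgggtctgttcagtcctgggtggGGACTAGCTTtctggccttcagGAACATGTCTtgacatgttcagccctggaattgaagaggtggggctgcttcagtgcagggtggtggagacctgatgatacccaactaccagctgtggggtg
Gadd45a: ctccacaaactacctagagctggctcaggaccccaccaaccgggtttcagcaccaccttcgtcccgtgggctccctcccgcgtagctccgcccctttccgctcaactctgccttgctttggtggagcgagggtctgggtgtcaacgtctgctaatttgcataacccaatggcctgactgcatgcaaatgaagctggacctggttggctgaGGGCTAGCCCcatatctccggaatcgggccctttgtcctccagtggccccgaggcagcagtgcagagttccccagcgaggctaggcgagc
Aen: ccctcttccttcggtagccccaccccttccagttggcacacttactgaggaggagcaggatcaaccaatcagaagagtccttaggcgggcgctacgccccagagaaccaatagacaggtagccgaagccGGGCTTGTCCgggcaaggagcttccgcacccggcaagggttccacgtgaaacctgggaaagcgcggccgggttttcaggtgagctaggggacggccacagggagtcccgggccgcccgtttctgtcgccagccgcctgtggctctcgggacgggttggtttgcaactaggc
Ccng1: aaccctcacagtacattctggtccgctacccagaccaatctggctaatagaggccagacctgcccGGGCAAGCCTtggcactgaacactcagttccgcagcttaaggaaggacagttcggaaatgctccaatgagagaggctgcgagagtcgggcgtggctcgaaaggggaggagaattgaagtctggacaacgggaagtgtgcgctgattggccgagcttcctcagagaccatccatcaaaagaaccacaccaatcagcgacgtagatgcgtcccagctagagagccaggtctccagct
Mdm2: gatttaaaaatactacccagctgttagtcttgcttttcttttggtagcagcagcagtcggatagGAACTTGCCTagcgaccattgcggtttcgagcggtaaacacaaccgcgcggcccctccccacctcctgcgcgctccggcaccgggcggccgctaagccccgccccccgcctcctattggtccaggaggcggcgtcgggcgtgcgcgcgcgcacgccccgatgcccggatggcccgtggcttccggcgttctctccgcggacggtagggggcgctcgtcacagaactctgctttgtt
Plk2: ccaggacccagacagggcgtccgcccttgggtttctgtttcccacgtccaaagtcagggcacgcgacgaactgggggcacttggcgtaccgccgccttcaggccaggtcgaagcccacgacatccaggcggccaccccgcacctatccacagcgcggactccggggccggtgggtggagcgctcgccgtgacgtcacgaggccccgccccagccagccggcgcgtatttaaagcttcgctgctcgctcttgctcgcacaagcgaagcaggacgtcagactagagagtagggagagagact

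A half-site was present in the promoter windows of 13 of the 27 members (48.1%), against 9.55% of 27025 genes with a window. By exact matches to the consensus, Cdkn1a was the only member of the 27 whose window held a pair spaced as a full site. Such a pair was held by 20 of the 27025 genes (0.074%), and in Cdkn1a 12 bases lay between the decamers. The bases tgacatgttc, directly after the decamer GAACATGTCT in the Cdkn1a window, miss the consensus at their first base. They were therefore neither marked nor paired. That Cdkn1a window belongs to the upstream of 2 starts in RefSeq, and the other window held no match. A match describes the letters of the window and shows no binding, and p53 sites can also lie outside it.

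In control cells the members spanned a wide range of levels. Per kilobase of exon, Ccng1 (cyclin G1) was highest at 282 ± 24.8 CPM (SD, n = 5), followed by Rps27l, a ribosomal protein paralog, at 262 ± 23.7 and Bax, which permeabilises mitochondria in cell death, at 114 ± 8.14. Ccng1 and Rps27l did not differ beyond their spread. Trp53 was at 45.0 ± 4.28, Cdkn1a at 37.3 ± 6.78 and Mdm2 at 31.6 ± 1.90. At the low end stood the death receptor Fas, at 0.492 ± 0.114, and the ephrin receptor Epha8, at 0.292 ± 0.0655. Fas had 4 to 24 counts per library, so that changes in it were hardly detectable at this depth. Reads of Rps27l may be shared with its close paralog Rps27.

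**Figure D1:**
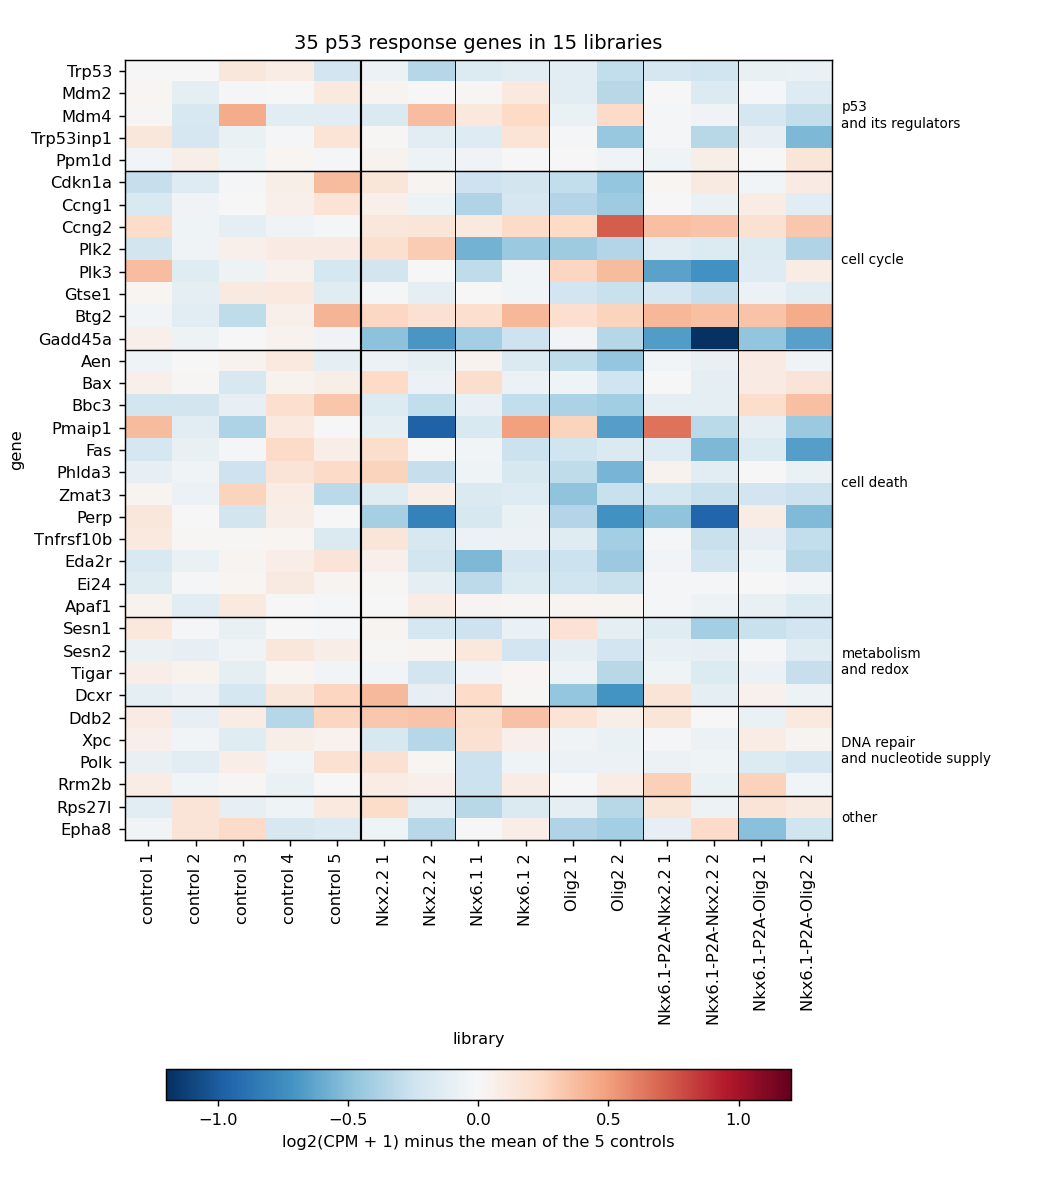
Heat map of log2(CPM + 1) minus the mean of the 5 control libraries, for the 35 p53 response genes (vertical axis, by role) in 15 libraries (horizontal axis). Red is above and blue below the control mean; Gadd45a is blue in the factor libraries, with Olig2 replicate 1 near white, and the 2 Olig2 libraries are blue in most genes.

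Taken over all lines, most members were lower in the factor lines than in the Cre controls, by small amounts. In the mean of the 5 lines against the control, 28 of 35 members had a negative log2 fold change, against 51.8% of all tested genes, with a median of -0.12 against -0.0051 for all genes. In the same comparison 8 of 8 pluripotency markers were negative, with a median of -0.58, and Zfp42 fell by 0.77 (edgeR adjusted p = 0.0425). So were 6 of 6 endoderm markers, with a median of -0.31, of which Sox17 fell by 0.36 (edgeR adjusted p = 0.00645); their summed level was 269 to 688 CPM in controls and 184 to 549.6 CPM in factor libraries. Line by line, 5 of 6 endoderm markers were negative in the Nkx2.2 and Nkx6.1 lines and 6 of 6 in both 2-factor lines. In the Olig2 line 1 of 6 was, with a median of 0.40. The pluripotency markers were negative in 8 of 8 (Nkx2.2 and both 2-factor lines), 4 of 8 (Nkx6.1) and 7 of 8 (Olig2). No marker of either list was at 0 in any library, and the part of these cell types in the members' differences was not tested. Only Gadd45a passed the threshold (adjusted p below 0.05, edgeR quasi-likelihood test with Benjamini-Hochberg adjustment over all tested genes), while 3.03% of all genes did (2.1% lower and 0.923% higher). At an unadjusted p below 0.05 there were 12 of 35 members, against 15.05% of all genes. No member had all 5 controls above all 10 factor libraries (0.308% of all genes did), and none had all 5 below (0.236%). With 1 library left out, 1 member each was separated in this way. Controls were above without control replicate 5 or Olig2 replicate 1, and below without control replicate 1 or 5. The share of all genes separated with a library left out is not given, so these counts have no background to be set against.

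Of the p53 gene and its 4 regulators, none passed by edgeR in any comparison with all 15 libraries and no batch term. Trp53 was at 182, 182, 199.5, 193 and 154 CPM in control replicates 1 to 5. In the factor libraries it was at 173 and 143 (Nkx2.2), 161 and 165 (Nkx6.1), 167 and 148 (Olig2), 158 and 154 (Nkx6.1-P2A-Nkx2.2), and 170.4 and 172 CPM (Nkx6.1-P2A-Olig2). Controls 1 to 4 lay above all 10 factor libraries, and control replicate 5 lay among them. The mean log2 difference was -0.18 ± 0.063 (SE; edgeR adjusted p = 0.179); without control replicate 5 it was -0.23 with an adjusted p of 0.0279, so that 1 library decided whether it passed.

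Mdm2 was at 163, 147, 157, 161 and 174 CPM in the controls. In the factor libraries it was at 164 and 159 (Nkx2.2), 162 and 174 (Nkx6.1), 146 and 127 (Olig2), 161 and 143 (Nkx6.1-P2A-Nkx2.2), and 158 and 144 CPM (Nkx6.1-P2A-Olig2). The groups overlapped, apart from both Olig2 libraries, which were below every control, and the mean log2 difference was -0.07 ± 0.053 (SE; edgeR adjusted p = 0.647). The other regulators were Mdm4 (72.0 to 120.2 CPM over the 15 libraries), the p53-inactivating phosphatase Ppm1d (56.6 to 65.3 CPM) and Trp53inp1, a nuclear cofactor of p53 (326 to 532 CPM). Of the 5 genes, 3 had a negative mean difference. Mdm4 passed in the Olig2 line when the label number was added as a block, as did 2021 of all 13982 genes.

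Cdkn1a, which encodes the cell-cycle inhibitor p21 and is the most used readout of p53 activity, did not separate the controls from the factor lines. It was at 108, 117, 129, 137 and 171 CPM in control replicates 1 to 5. In the factor libraries it was at 144 and 134 (Nkx2.2), 110.0 and 112 (Nkx6.1), 106 and 94.4 (Olig2), 133 and 141 (Nkx6.1-P2A-Nkx2.2), and 128 and 140.3 CPM (Nkx6.1-P2A-Olig2). Control replicate 5 was the highest of all 15 libraries and control replicate 1 the third lowest, so the controls spanned nearly the whole range, and only both Olig2 libraries lay below every control. The mean log2 difference was -0.10 ± 0.088 (SE; edgeR adjusted p = 0.671), and without control replicate 5 it was 0.0029.

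Gadd45a, a stress-induced protein that binds the replication clamp PCNA and slows the cell cycle, was the member that set the Cre controls apart most. Its controls were at 17.2, 15.6, 16.3, 16.9 and 15.8 CPM. The factor libraries were at 11.4 and 9.71 (Nkx2.2), 12.1 and 13.6 (Nkx6.1), 15.96 and 12.7 (Olig2), 9.94 and 6.62 (Nkx6.1-P2A-Nkx2.2), and 11.5 and 10.04 CPM (Nkx6.1-P2A-Olig2). Apart from Olig2 replicate 1, each factor library was below all 5 controls. In the mean of the lines Gadd45a fell by 0.55 on the log2 scale (SE 0.096; edgeR adjusted p = 0.00645), and the adjusted p stayed between 0.0023 and 0.0252 when any 1 library was left out. In Nkx6.1-P2A-Nkx2.2 cells alone it fell by 0.99 (SE 0.161; edgeR adjusted p = 0.00397), although without replicate 2 of that line the value was -0.72 with an adjusted p of 0.127.

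Gadd45a was also read against its surroundings in the genome and in the cells. Its exons (chr6:67035096-67037457, minus strand, GENCODE M21 on GRCm38) share 337 bases with E230016M11Rik on the other strand, and strand-specific counting is not given in the sources used here. That gene was at 0.450 to 1.09 CPM in controls and 0.302 to 1.06 CPM in factor libraries, well under Gadd45a. The summed level of 6 neural crest markers was also lower in the factor lines, at 18.8 to 26.3 CPM in controls and 7.77 to 19.8 CPM in factor libraries. Of the 4 that were tested, 3 transcription factors of the crest fell in the mean of the lines, Twist1 by 0.95, Tfap2a by 1.08 and Tfap2b by 2.28 on the log2 scale (edgeR adjusted p = 0.0054, 0.0198 and 0.00645). None of the 6 was at 0 in any library, and Sox10, a defining crest marker, was at no more than 1.01 CPM. Markers of pluripotent cells and endoderm were lower as well, as given above, and the part of these cell types in the Gadd45a difference was not tested.

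**Figure D2:**
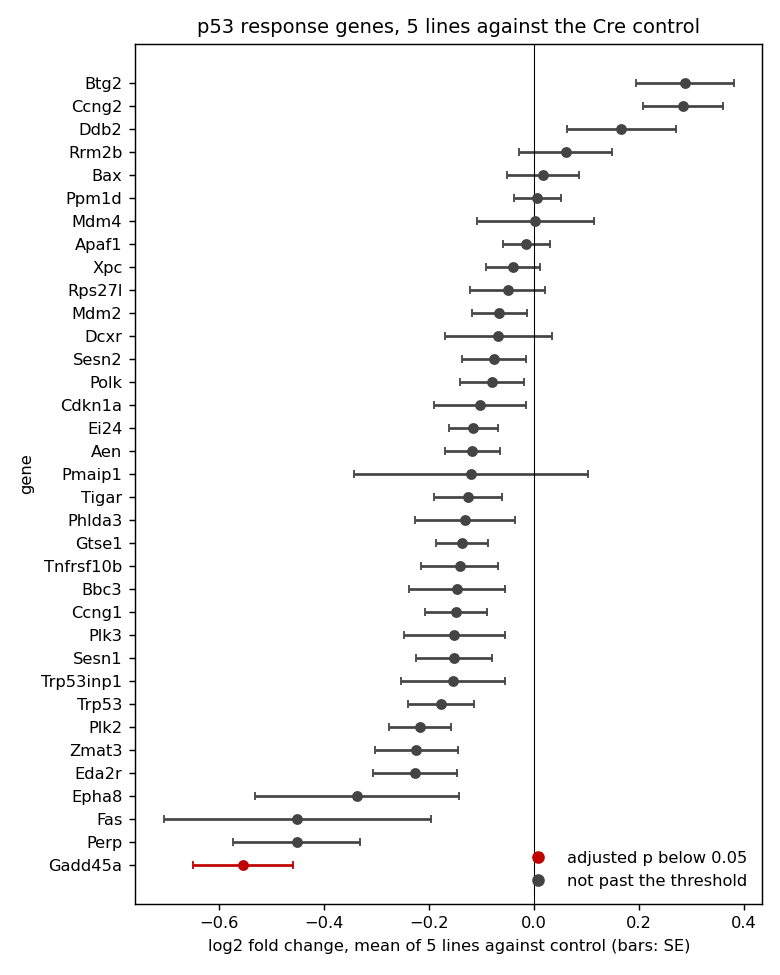
Log2 fold change of each of the 35 genes in the mean of the 5 factor lines against the 5 Cre controls (horizontal axis), with SE bars. Gadd45a, in red at -0.55, is the member past the threshold; 28 of 35 points are left of 0, with Btg2 and Ccng2 farthest to the right.

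The remaining cell-cycle members went both ways, and 6 of the 8 in that role had a negative mean difference. Ccng2, cyclin G2, which is linked to exit from the cycle, had a mean log2 difference of 0.28 ± 0.077 (SE; edgeR adjusted p = 0.0703), and the antiproliferative gene Btg2 one of 0.29 ± 0.093 (adjusted p = 0.139). Without control replicate 5 the call on Btg2 was gained, and 4 members then passed in all: Trp53, Zmat3, Btg2 and Gadd45a. Leaving out a library also moved the number of calls over all genes. That number is not given here for each fit, so a gain in members cannot be told apart from a general rise. Without control replicate 1, Olig2 replicate 1, Nkx6.1-P2A-Nkx2.2 replicate 1 or Nkx6.1-P2A-Olig2 replicate 1, 2 or 3 members passed, with Perp, Ccng2 or Plk2 beside Gadd45a. Ccng1 was at 869 to 1104 CPM in controls and at 736 to 1051 CPM in factor libraries, and Gtse1, a p53-binding protein of the late cycle, at 178 to 214 and 163 to 196 CPM.

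Of the 12 cell-death members, 11 had a negative mean difference. None passed in the mean of the lines by edgeR with all 15 libraries, the filter on low counts and no batch term. DESeq2, and edgeR with no filter, called Perp there. With the label number as a block, edgeR called Zmat3, Perp and Eda2r, with 1405 calls over all 13982 genes. Perp, a membrane protein of desmosomes, came nearest: its controls were at 24.4 to 31.5 CPM and its factor libraries at 14.2 to 30.4 CPM, with a mean log2 difference of -0.45 ± 0.121 (SE; edgeR adjusted p = 0.0669). The BH3-only genes Bbc3 (Puma) and Pmaip1 (Noxa) had differences of -0.15 ± 0.091 and -0.12 ± 0.223. Differences in the receptors were -0.45 ± 0.254 for Fas, -0.14 ± 0.073 for Tnfrsf10b and -0.23 ± 0.080 for Eda2r. Those of Bax (0.02 ± 0.068) and Apaf1, the apoptosome scaffold (-0.01 ± 0.044), were near 0.

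All 4 members of metabolism and redox control had small negative differences, from -0.15 for the stress sensor Sesn1 to -0.07 for the reductase Dcxr, with Sesn2 and the glycolysis regulator Tigar between them. The repair genes split evenly: Ddb2 and Rrm2b, a ribonucleotide reductase subunit, were at 0.17 and 0.06, and Xpc and the bypass polymerase Polk at -0.04 and -0.08. Ddb2 exons share 652 bases with Acp2 on the other strand, which was at 41.6 to 54.2 CPM over all libraries against 7.38 to 12.5 CPM for Ddb2, so part of its counts may come from Acp2. Rps27l and Epha8 had differences of -0.05 and -0.34. None of these genes passed by edgeR in any comparison with all 15 libraries and no batch term, while DESeq2 called Dcxr in the Olig2 line and Dcxr and Xpc among the lines. Dcxr was also called among the lines with the label number as a block, as were 1573 of all 13982 genes.

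Each line was then compared with the same 5 controls, so that these comparisons are not independent of each other. In the Nkx2.2 line 0 of 35 members passed, against 0.722% of all genes (0.451% lower and 0.272% higher). At an unadjusted p below 0.05 there were 5 members against 8.65% of all genes, and DESeq2 called 1 (Gadd45a). There, 19 of 35 differences were negative with a median of -0.01, although without Nkx2.2 replicate 1 the median was -0.09. Both libraries lay below all controls in 3 members (6.69% of all genes) and above in 2, Plk2 and Ddb2 (5.66%).

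In the Nkx6.1 line 1 member fell, against 0.565% of all genes that were lower (0.737% passed in all): Plk2, a polo-like kinase that acts at centrosomes and synapses. Its controls were at 68.9, 78.3, 83.9, 86.3 and 86.5 CPM. The factor libraries were at 92.1 and 99.9 (Nkx2.2), 54.1 and 58.7 (Nkx6.1), 59.7 and 62.7 (Olig2), 73.8 and 71.9 (Nkx6.1-P2A-Nkx2.2), and 71.9 and 62.5 CPM (Nkx6.1-P2A-Olig2). Both Nkx2.2 libraries were above every control and the Nkx6.1 and Olig2 libraries below. In the Nkx6.1 line Plk2 fell by 0.52 on the log2 scale (SE 0.094; edgeR adjusted p = 0.0247). The call was lost without control replicate 2, 3 or 4 (adjusted p = 0.0566, 0.0509 and 0.0736) and without Nkx6.1 replicate 1 or 2 (0.469 and 0.0648). It also missed the threshold with a term for the label series (0.0697), with the label number as a block (0.140) and with only the compared groups in the fit (0.0789). Of the 35 members, 23 had negative differences here, with a median of -0.07, and both libraries lay below all controls in 6 (9.7% of all genes) and above in 0 (10.2%).

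The Olig2 line was the one in which the most members stood below the controls. Both of its libraries were under all 5 controls in 14 of 35 members, against 7.84% of all genes, and above in 1 (7.88%). The 14 were Cdkn1a, Mdm2, Ccng1, Aen, Plk2, Bbc3, Sesn2, Phlda3, Gtse1, Perp, Eda2r, Ei24, Dcxr and Epha8. Scaling by the median of ratios gave 12 (8.32% of all genes), and reading Olig2 replicate 2 alone gave 23, where 23.6% of all genes lay below the controls. At an unadjusted p below 0.05 there were 17 of 35 members, against 12.7% of all genes. The median log2 difference over the members was -0.23, with 27 of 35 negative, and it was -0.35 without Olig2 replicate 1 and -0.11 without Olig2 replicate 2.

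By the adjusted test 3 members passed in the Olig2 line, 2 lower and 1 higher, against 1.86% of all genes (0.443% lower and 1.42% higher). Aen, a nuclease that degrades DNA in apoptosis, was at 127, 132, 136, 143 and 122 CPM in controls and at 106 and 95.5 CPM in the Olig2 libraries. The other factor libraries were at 125 and 121 (Nkx2.2), 135 and 117 (Nkx6.1), 129 and 124 (Nkx6.1-P2A-Nkx2.2), and 141 and 128 CPM (Nkx6.1-P2A-Olig2), so that the Olig2 libraries were the lowest of the 15. Aen fell by 0.39 on the log2 scale (SE 0.082; edgeR adjusted p = 0.0281). It did not pass without control replicate 2, 3 or 4 (adjusted p = 0.0615, 0.0573 and 0.0679) or without Olig2 replicate 1 or 2 (0.057 and 0.532). Plk2 fell by 0.40 (SE 0.094; edgeR adjusted p = 0.049), a call that remained only without control replicate 1 or Nkx6.1-P2A-Olig2 replicate 2 and ended without any of the other 13 libraries.

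Ccng2 rose in the Olig2 line. Its controls were at 70.5, 58.4, 55.9, 58.8 and 59.6 CPM. The factor libraries were at 66.5 and 66.8 (Nkx2.2), 65.6 and 71.0 (Nkx6.1), 71.7 and 101 (Olig2), 77.8 and 76.9 (Nkx6.1-P2A-Nkx2.2), and 68.5 and 76.0 CPM (Nkx6.1-P2A-Olig2). Olig2 replicate 2 was the highest of all, and without control replicate 1 all 10 factor libraries would lie above the controls. The Olig2 difference was 0.51 ± 0.113 (SE; edgeR adjusted p = 0.0381). It passed without Olig2 replicate 1, Nkx6.1-P2A-Olig2 replicate 2 or control replicate 1 or 5, and did not without any of the other 11 libraries, with an adjusted p of up to 0.778. Ccng1 was at 775 and 736 CPM in the Olig2 libraries, below every control, and just missed the threshold, with a log2 difference of -0.39 ± 0.093 (edgeR adjusted p = 0.0502).

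With a term for the label series, or only the compared groups in the fit, none of the 3 genes passed in the Olig2 line (adjusted p = 0.0712 to 0.159). All 3 calls of the Olig2 line also ended when genes of chromosomes 18 and Y were left out of the fit and of the adjustment, with adjusted p-values of 0.107 (Aen and Ccng2) and 0.152 (Plk2) and log2 differences of -0.37, 0.52 and -0.39. Over all genes 22 calls were then made (11 lower and 11 higher of 13605), against 260 with those chromosomes (62 lower and 198 higher of 13982). The member Pmaip1 lies on chromosome 18 and was at 19.4 and 9.73 CPM in the Olig2 libraries against 12.1 to 21.2 CPM in controls.

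**Figure D3:**
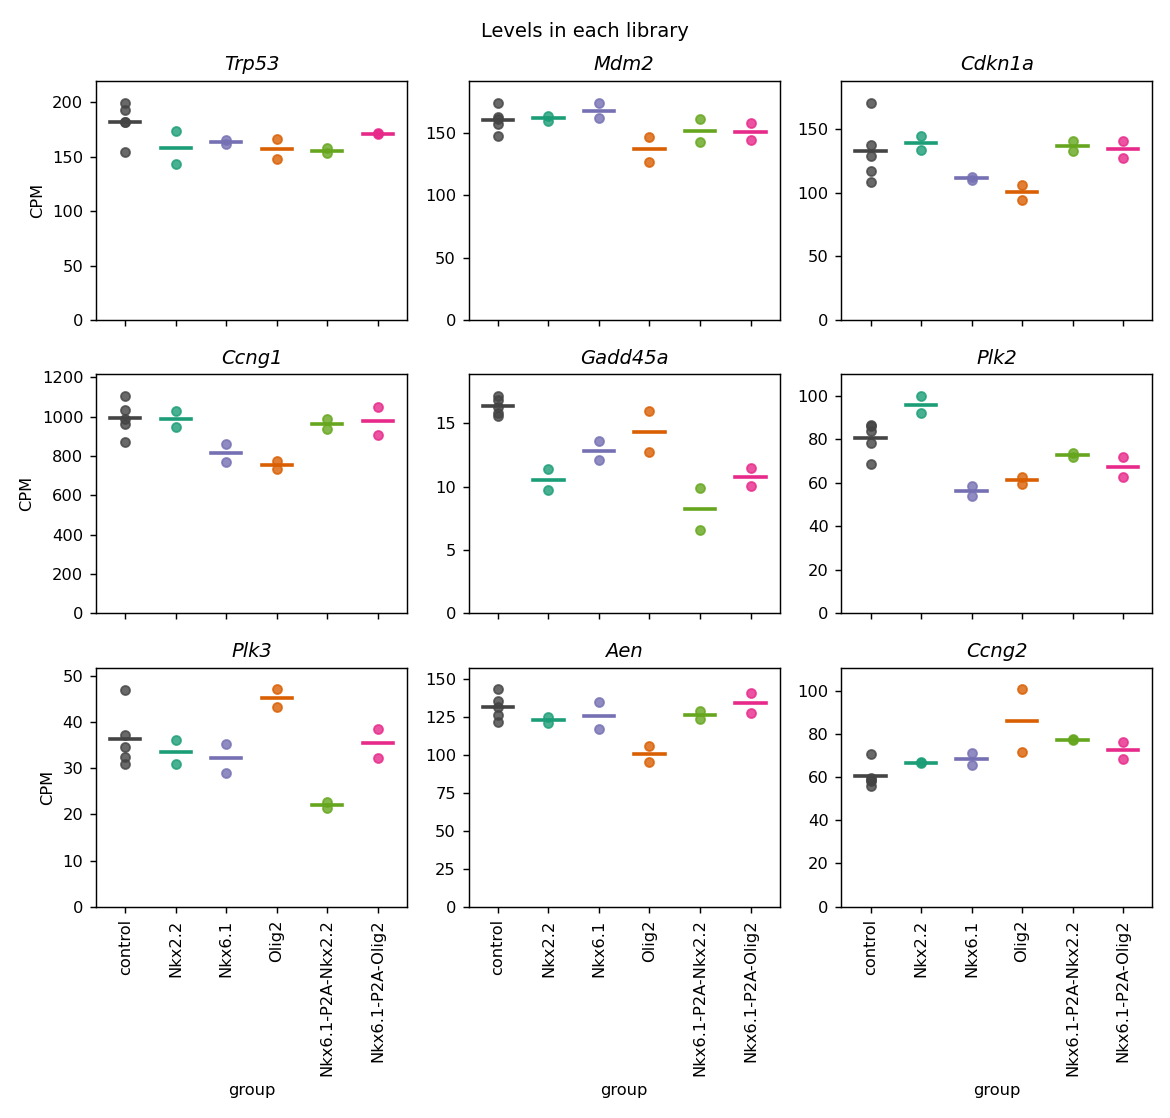
CPM (vertical axes, from 0) of 9 members in each of the 6 groups (horizontal axis); points are libraries (5 controls, 2 per line) and bars are group means. Gadd45a is lower in the factor lines, Plk3 lowest in Nkx6.1-P2A-Nkx2.2 cells at 22.7 and 21.4 CPM, and Cdkn1a, Ccng1, Mdm2 and Aen lowest in the Olig2 line.

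With Nkx6.1-P2A-Nkx2.2, 2 members fell, Gadd45a and Plk3, against 1.76% of all genes that were lower (2.85% passed in all). Plk3, a polo-like kinase of the stress response, was at 46.8, 32.5, 34.6, 37.3 and 30.9 CPM in the controls. The factor libraries were at 30.9 and 36.2 (Nkx2.2), 29.0 and 35.2 (Nkx6.1), 43.3 and 47.0 (Olig2), 22.7 and 21.4 (Nkx6.1-P2A-Nkx2.2), and 32.3 and 38.5 CPM (Nkx6.1-P2A-Olig2). Both libraries of the line were the lowest of all 15, while the Olig2 libraries were at the level of the highest control. Plk3 fell by 0.72 on the log2 scale (SE 0.156; edgeR adjusted p = 0.0257). It did not pass without control replicate 4 (adjusted p = 0.0548) or without replicate 1 or 2 of the line (0.160 and 0.341). All libraries of this line have label series 23, as do 2 of the 5 controls. With a term for the series Plk3 was at -0.63 with an adjusted p of 0.140, and with only the compared groups in the fit the adjusted p was 0.0564. Plk3 shares 84 exon bases with Tctex1d4 on the other strand, which reached no more than 0.187 CPM.

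In the same line 25 of 35 differences were negative with a median of -0.06, and without its replicate 1 the median was -0.12. Both libraries lay below all controls in 5 members (9.99% of all genes) and above in 1, Ccng2 (10.9%). With Nkx6.1-P2A-Olig2, 0 of 35 members passed by edgeR, against 2.84% of all genes (1.82% lower and 1.02% higher). At an unadjusted p below 0.05 there were 6 members against 16.6% of all genes; DESeq2 and limma called 1 each, Gadd45a, at -0.60 ± 0.155 by edgeR (adjusted p = 0.0566). There 24 differences were negative with a median of -0.09, and both libraries lay below all controls in 5 members (10.4%) and above in 1, Bax (12.4%). Read on 1 library of a line alone, the members below all controls numbered 14 for Nkx2.2 replicate 2 (21.4% of all genes) and 10 for each Nkx6.1 library (24.2% and 17.3%). They were 13 for Nkx6.1-P2A-Nkx2.2 replicate 2 (20.7%) and 16 for Nkx6.1-P2A-Olig2 replicate 2 (23.5%). Without control replicate 5, the members with both libraries below the controls were 5, 9, 8 and 8 in these 4 lines, against 11.7%, 14.4%, 15.9% and 15.5% of all genes; in the Olig2 line they were 17, against 14.2%.

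The lines differed from each other in 2 members, against 4.81% of all genes, by the test that all 5 line effects are equal. These were Plk2 (edgeR adjusted p = 0.00623), which was highest in the Nkx2.2 line and lowest in the Nkx6.1 line, and Plk3 (adjusted p = 0.0367), highest in the Olig2 line and lowest with Nkx6.1-P2A-Nkx2.2. The call on Plk2 was lost without Nkx2.2 replicate 2 (adjusted p = 0.0501). That on Plk3 was lost without Nkx6.1 replicate 1, either Olig2 library, either Nkx6.1-P2A-Nkx2.2 library, Nkx6.1-P2A-Olig2 replicate 2 or control replicate 4 (0.0508 to 0.162), and with a term for the label series (0.124). For Gadd45a the adjusted p of this test was 0.0994, so its differences between lines did not pass. Single-factor and 2-factor lines have different label series, which among the factor lines alone cannot be told apart from the number of factors. Only the controls hold both series, and the fit with the series term rests on them.

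The level of the set was also read in each library, as the median over the 35 genes of log2(CPM + 1) minus the mean of the 15 libraries for each gene. The highest libraries were control replicates 4 and 5, at 0.126 and 0.11, followed by Nkx2.2 replicate 1 at 0.064. The other controls were at 0.033 (replicate 1), 0.0053 (replicate 2) and 0.031 (replicate 3). The lowest was Olig2 replicate 2, at -0.19, followed by Nkx6.1-P2A-Nkx2.2 replicate 2 (-0.08), Nkx6.1-P2A-Olig2 replicate 2 (-0.07) and Olig2 replicate 1 (-0.06). Over all tested genes the same medians stayed between -0.015 and 0.0088. The 5 controls (0.0053 to 0.126) and the 10 factor libraries (-0.19 to 0.064) overlapped.

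**Figure D4:**
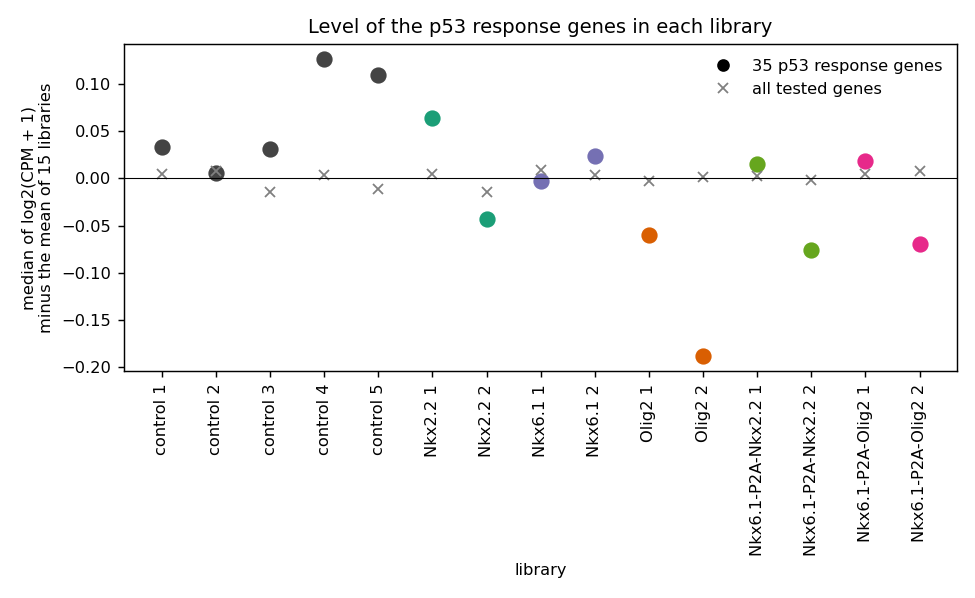
Median over the 35 genes of log2(CPM + 1) minus the mean of 15 libraries (vertical axis) in each library (circles, coloured by group), with the same median over all tested genes (crosses). Control replicates 4 and 5 are highest at 0.126 and 0.11, and Olig2 replicate 2 is lowest at -0.19.

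The 2 highest libraries were the controls of label series 23. In the fit with a term for the series, estimated from 3 and 2 control libraries, 0 of 35 members and 0% of all genes passed by edgeR. At an unadjusted p below 0.05 there were 5 members, against 5.79% of all genes, and DESeq2 called 1 (Bbc3). The 5 were Bbc3, Cdkn1a, Btg2, Dcxr and Phlda3, each higher in series 23, with log2 differences of 0.45, 0.38, 0.40, 0.34 and 0.32. Bbc3 was at 45.1, 45.1 and 49.1 CPM in the controls of series 21 and at 60.4 and 66.6 CPM in those of series 23.

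Among the factor libraries, 7 have a control with the same label number. In Nkx2.2 replicate 1, 10 of 35 members were below that control. In the other 6 the number was 22 for Nkx6.1 replicate 1, 24 for Olig2 replicate 1, 25 and 29 for Nkx6.1-P2A-Nkx2.2 replicates 1 and 2, and 25 and 25 for Nkx6.1-P2A-Olig2 replicates 1 and 2. The share of all genes below the control was 48.4% to 50.9% in these 7 pairs. The 2-factor libraries of label numbers 232 and 234 share their controls, replicates 4 and 5, which had the highest levels of the set.

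Within the set, 8 of the 34 other members followed Cdkn1a over the 15 libraries with a Pearson correlation of at least 0.6, against 2.07% of all tested genes, an observation made after the values were seen. They were Ccng1 (0.85), Ei24, an endoplasmic reticulum protein (0.80), the Akt inhibitor Phlda3 (0.72), Bbc3 (0.71), Rps27l (0.68), Eda2r (0.67), Dcxr (0.67) and Plk2 (0.64). Their Spearman correlations were 0.54 to 0.76. Libraries share groups of origin and label series, so the 15 points are not independent and no p is given. Without the 2 libraries farthest from the median of Cdkn1a, control replicate 5 and Olig2 replicate 2, Ei24 (0.78), Ccng1 (0.75) and Plk2 (0.63) were still above 0.6 and the other 5 were not. Over deviations from the group means 4 members reached 0.6, against 7.48% of all genes: Bbc3 (0.88), Polk (0.72), Btg2 (0.68) and Ccng1 (0.67). Polk and Btg2 were not among the 8 named above. The rest of the 8 lay between 0.36 (Rps27l) and 0.58 (Ei24).

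**Figure D5:**
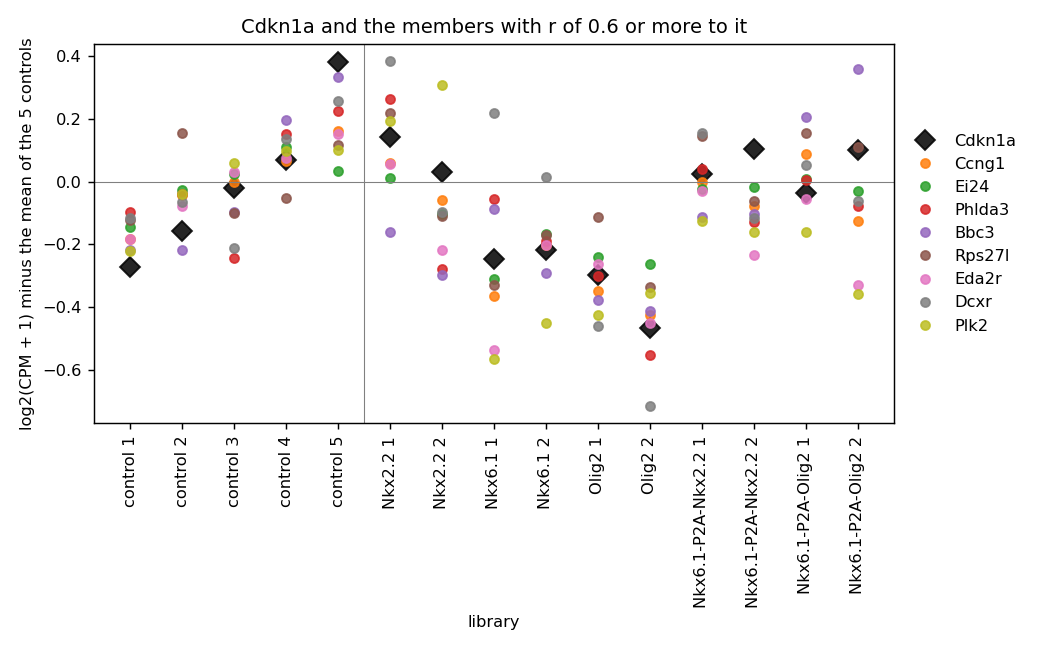
Log2(CPM + 1) minus the mean of the 5 controls (vertical axis) in each library (horizontal axis) for Cdkn1a (black diamonds) and the 8 members with a Pearson correlation of at least 0.6 to it (coloured points). The Nkx6.1 and Olig2 libraries lie mostly below 0, and control replicate 5 lies above it in all 9 genes.

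In the wider pathway, few genes passed. Of 45 further genes listed as p53 targets, 43 were tested. In the Olig2 line 4 fell and 1 rose, where 0.443% of all genes were lower and 1.42% higher: Psrc1, a spindle protein (-0.40 ± 0.082), the adenylate kinase Ak1 (-0.46 ± 0.098), Zfp385a (-0.36 ± 0.077), Zfp365 (-0.67 ± 0.145) and Tnfaip8, a cell-death inhibitor encoded on chromosome 18 (0.55 ± 0.128). Without chromosomes 18 and Y that line had 22 calls over all genes, against 260 with them. Whether the 4 that fell were among the 22 is not given here. With Nkx6.1-P2A-Nkx2.2, 4 fell, against 1.76% of all genes: the autophagy gene Dram1 (-1.58 ± 0.320), the thiamine transporter Slc19a2 (-0.38 ± 0.082), the small GTPase Rap2b (-0.55 ± 0.135) and Cdkn2a (-0.44 ± 0.109). The p19Arf product of Cdkn2a inhibits Mdm2, so this gene of the list acts upstream of p53. In the mean of the lines Slc19a2 and Rap2b fell, against 2.1% of all genes, and 23 of the 43 differences were negative with a median of -0.03. No member of this list passed in the Nkx2.2, Nkx6.1 or Nkx6.1-P2A-Olig2 line, where 5, 10 and 10 had an unadjusted p below 0.05, against 8.65%, 16.6% and 16.6% of all genes. The lines differed from each other in 5 of the 43, against 4.81% of all genes: Dram1, Ak1, Tnfaip8, Psrc1 and Zfp385a.

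Of 20 tested regulators of p53 beyond the set, 0 passed in any of these edgeR tests, with 0 to 2 at an unadjusted p below 0.05 in each, where 5.79% to 20.8% of all genes were. Of 18 cell-cycle genes that p53 is known to lower, 1 passed, the phosphatase Cdc25c, which rose in the Olig2 line (0.65 ± 0.094, edgeR adjusted p = 0.00167), differed among the lines (adjusted p = 0.0336) and lies on chromosome 18; 1.42% of all genes were higher in that line and 4.81% differed among the lines. Their median difference in the mean of the lines was -0.003, against -0.12 for the members. Of 11 tested stress and immediate-early genes, Atf4, the factor of the integrated stress response, fell with Nkx6.1-P2A-Nkx2.2 (-0.42 ± 0.082, edgeR adjusted p = 0.0138) and differed among the lines (adjusted p = 0.0245), where 1.76% of all genes were lower in that line and 4.81% differed among the lines. The other 10 passed by edgeR in no comparison.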

How the data were processed

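RNA from 15 libraries was analysed. The labels' protocols describe column-purified RNA and TruSeq library preparation. STAR, DESeq2 and mm10 are named in the submitters' processing notes. The sources used here do not give the counting tool, its strand setting or the annotation. The deposited values are counts per gene, although their sheet is named for RPKM: the table had 0 non-integer cells and its library totals differ. In 27 rows a date stood for the gene symbol; they held 0.228% to 0.253% of each library's counts and were not tested. A deposited table of ratios was not used.

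Counts were scaled by TMM and tested in edgeR 4.0.16 (R 4.3.3) with the quasi-likelihood test, in 1 model of 6 groups without covariates, for genes that reached 1 CPM in 2 or more libraries. Benjamini-Hochberg adjustment ran over 13982 genes, with a threshold of 0.05. The SE of an edgeR difference is its absolute log2 value divided by the square root of the F statistic of its test. The tests were each line against the control, the mean of the 5 lines against the control, equality of the 5 lines, and, in a fit with a label-series term, the 2 series. The procedure was tested on simulated data. CPM values are scaled by TMM, and members are given in full where they passed in any test, with Trp53, Cdkn1a and Mdm2 added; of other lists, up to 4 genes per comparison. The members, lists and tests were chosen with earlier results of these data known, so their counts are descriptions. Tigar was matched through a RefSeq synonym. Gene positions and exon lengths came from GENCODE M21. Alternatives were DESeq2 1.42.0, limma 3.58.1 on log2(CPM + 1), median-of-ratios scaling, other filters, blocks for replicate number or label number, a label-series term, only the compared groups, no chromosomes 18 and Y, and each library left out. Intervals between libraries rest on 2 to 5 values.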

Additional observations from a re-analysis of the deposited data

Results flagged for a closer look

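In 3 members 1 control library stood far from the other 4 by Dixon's criterion for a gap at the end of a group. Mdm4 was highest in control replicate 3, at 120.2 CPM, against 77.2 to 89.3 CPM in the others. Ccng2 was highest in control replicate 1, at 70.5 CPM, against 55.9 to 59.6 CPM. Bax was lowest in control replicate 3, at 157 CPM, against 181 to 188 CPM. Chance gives such a gap in about 1 in 20 groups, and 36 groups were checked.

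In 2 members the effects of the 5 lines differed from each other by the test of equal line effects. These were Plk2 (edgeR adjusted p = 0.00623), from 92.1 and 99.9 CPM in the Nkx2.2 line to 54.1 and 58.7 CPM in the Nkx6.1 line, and Plk3 (edgeR adjusted p = 0.0367), from 43.3 and 47.0 CPM in the Olig2 line to 22.7 and 21.4 CPM with Nkx6.1-P2A-Nkx2.2.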

How the results depend on the processing

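The call on Gadd45a in the mean of the lines held in 23 of 24 alternatives and was lost with the replicate block (adjusted p = 0.0724). With DESeq2, members called were 6 (Olig2), 2 (Nkx6.1), 1 (Nkx2.2), 1 (Nkx6.1-P2A-Olig2), 4 (mean of lines), 8 (among lines) and 1 (label series). Over all 13982 genes DESeq2 called 432, 486, 220, 714, 678, 1604 and 8 in the same order. limma gave 1 in the Nkx6.1-P2A-Olig2 line, no filter gave 2 in the mean of lines, and only the compared groups gave 0 (Nkx6.1), 0 (Olig2) and 1 (Nkx6.1-P2A-Olig2). The calls over all genes in these fits were 442 (limma), 433 (no filter), and 64, 163 and 267 (only the compared groups). Without chromosomes 18 and Y the Olig2 line had 0. With the label-series term the members called were 0 (Olig2), 0 (Nkx6.1), 1 (Nkx6.1-P2A-Nkx2.2), 2 (mean of lines) and 1 (among lines), and the Nkx6.1-P2A-Nkx2.2 median was -0.14. Over all genes that fit called 218, 56, 202, 408 and 343 in the same order.

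Replicate numbers did not pair the samples: same-numbered libraries correlated between -0.34 and 0.68 in their deviations from group means, and 17 of 30 pairs exceeded 0.1. The replicate block gave 0 (Olig2), 0 (Nkx6.1), 4 (Nkx6.1-P2A-Nkx2.2), 2 (Nkx6.1-P2A-Olig2) and 5 (among lines), medians of -0.0049 (Nkx6.1-P2A-Nkx2.2) and -0.063 (mean of lines), and a reversed Cdkn1a mean difference of 0.13. The label number as a block gave 6 (Olig2), 0 (Nkx6.1), 5 (Nkx6.1-P2A-Nkx2.2), 2 (Nkx6.1-P2A-Olig2), 7 (mean of lines) and 7 (among lines), and medians of 0.077 (Nkx2.2), -0.10 (Olig2) and -0.14 (Nkx6.1-P2A-Nkx2.2). Over all 13982 genes the replicate block called 228 (Olig2), 40 (Nkx6.1), 349 (Nkx6.1-P2A-Nkx2.2), 370 (Nkx6.1-P2A-Olig2) and 1091 (among lines). The label number as a block called 2021 (Olig2), 40 (Nkx6.1), 1109 (Nkx6.1-P2A-Nkx2.2), 1269 (Nkx6.1-P2A-Olig2), 1405 (mean of lines) and 1573 (among lines). The cause of the changes under either block was not tested.

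With each library left out, members called ranged from 0 to 1 (Nkx6.1), 0 to 5 (Olig2), 0 to 3 (Nkx6.1-P2A-Nkx2.2), 0 to 1 (Nkx6.1-P2A-Olig2), 1 to 4 (mean of lines) and 1 to 4 (among lines). Medians ranged from -0.085 to 0.030 (Nkx2.2), -0.35 to -0.11 (Olig2) and -0.12 to -0.032 (Nkx6.1-P2A-Nkx2.2). Members with all controls on 1 side of all factor libraries were 0 to 1 in either direction, with the share of all genes not given. The control median of the library values exceeded the factor median by 0.034 to 0.115. Members with a line below all controls were 3 to 14 (Nkx2.2), 6 to 10 (Nkx6.1), 14 to 23 (Olig2), 5 to 13 (Nkx6.1-P2A-Nkx2.2) and 5 to 16 (Nkx6.1-P2A-Olig2). The Cdkn1a mean difference ranged from -0.17 (without control replicate 1) to 0.0029 (without control replicate 5). Calls over all genes ranged over the alternatives from 16 to 269 (Nkx2.2), 1 to 486 (Nkx6.1), 22 to 2021 (Olig2), 87 to 1109 (Nkx6.1-P2A-Nkx2.2), 81 to 1269 (Nkx6.1-P2A-Olig2), 149 to 1405 (mean of lines) and 313 to 1604 (among lines).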
